A study of Cervus nippon with 40 samples.

Results

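miR-208a and miR-208b are a pair of microRNAs (miRNAs) that lie inside the genes of the cardiac myosin heavy chains. They were chosen here by name, as bta-miR-208a and bta-miR-208b, which are 2 of the 500 miRNA names listed over the series and 2 of its 337 known bovine names. Small RNA was sequenced from 10 organs of male Sika Deer of the Shuangyang breed (adrenal, antler, brain, heart, kidney, liver, lung, skeletal muscle, spleen and testes) at 4 stages. Deer of 1 year are called juvenile, of 3 years adolescence, of 5 years adult and of 10 years aged. Every organ had 1 library at each stage, 40 in all, and RNA of 3 deer was mixed for each, so the spread between animals was not measured. The 4 libraries of an organ were taken as its replicates, which come from different deer of different ages. The labels name no treatment, and the part of the heart and the skeletal muscle that were sampled are not given in the sources used here.

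The heart contracts through the alpha and beta myosin heavy chains, made by MYH6 and MYH7. miR-208a is cut from an intron of MYH6 and miR-208b from an intron of MYH7, so each is made together with its host gene. MYH7 is also the myosin of slow skeletal muscle fibres, whereas MYH6 is largely a gene of heart muscle. In mammals the balance of both chains changes with growth, hormones and load on the heart, and the pair, with miR-499 inside MYH7B, are known as myomiRs.

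The values are reads per 1000000 miRNA reads (RPM), and whole reads could be recovered from them. The 4 heart libraries held 905158 to 2582105 miRNA reads and the 4 skeletal muscle libraries 5452979 to 7759033, against 41866 to 1159823 in the other 32 libraries. miR-1, an abundant miRNA of striated muscle, took 57.8%, 81.5%, 31.6% and 15.1% of the reads of the juvenile, adolescence, adult and aged heart, and 91.1% to 92.9% in skeletal muscle. This bears on every RPM value below, since the same number of molecules gives a lower RPM where miR-1 takes more of the reads, so values were also set on the reads without miR-1.

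miR-208a was read in the heart alone. It had 16, 14, 3 and 1 reads in the juvenile, adolescence, adult and aged heart, and 0 reads in each of the other 36 libraries. The levels in heart were 6.20, 5.47, 1.97 and 1.10 RPM (mean 3.69 ± 2.52, SD, n = 4). The juvenile and adolescence libraries were the higher pair, and the exact 95% counting intervals of all 4 overlapped (3.54 to 10.1, 2.99 to 9.18, 0.407 to 5.76 and 0.0280 to 6.16 RPM). These intervals cover counting error only, as PCR copies cannot be told from separate molecules. By reads miR-208a ranked 82 of 148 known names in the juvenile heart and 74 of 143 in the adolescence heart. It ranked 106 of 154 in the adult heart and 117 of 138 in the aged heart. Cloning can take up miRNAs unequally, so this is no rank of molecules.

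miR-208b was read in heart and skeletal muscle and in no other organ. In heart it had 47, 200, 63 and 30 reads, which gave 18.2, 78.1, 41.4 and 33.1 RPM (mean 42.7 ± 25.5, SD, n = 4). The adolescence heart was highest and the juvenile heart lowest, and their intervals (67.7 to 89.7 and 13.4 to 24.2 RPM) did not overlap with each other. In skeletal muscle it had 5, 10, 5 and 20 reads, which gave 0.644, 1.83, 0.769 and 3.32 RPM (mean 1.64 ± 1.24, SD, n = 4). Every heart library was above every skeletal muscle library on this scale, and miR-208b was above miR-208a in all 4 hearts. The remaining 32 libraries had 0 reads of miR-208b.

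**Figure D1:**
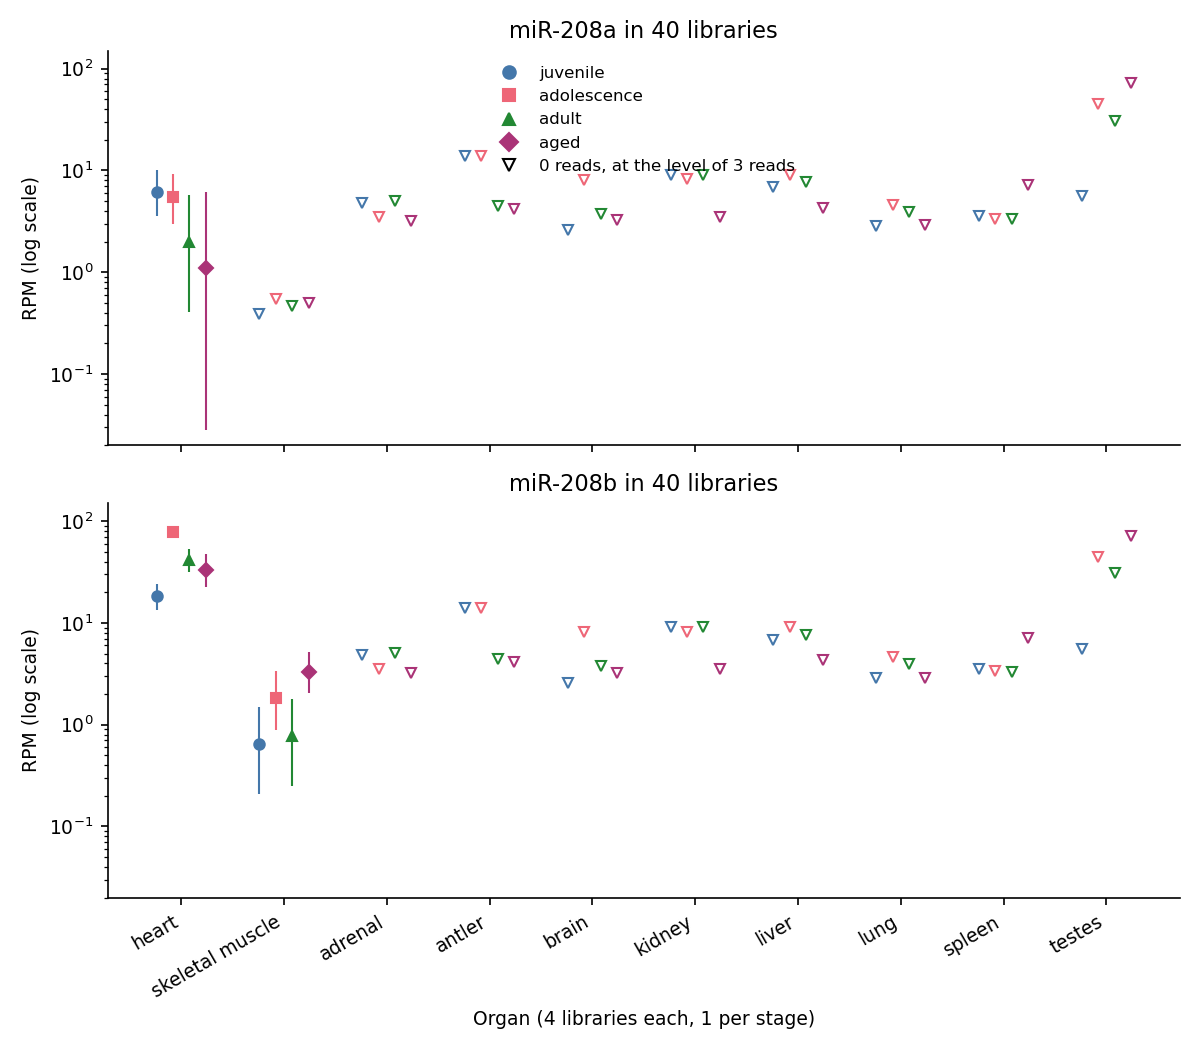
Level of miR-208a (top) and miR-208b (bottom) in the 40 libraries, in RPM on a log axis, by organ and stage. Filled points have exact 95% counting intervals, and open triangles are libraries with 0 reads, drawn at the level of 3 reads. miR-208a has filled points in heart alone (1.10 to 6.20 RPM), and miR-208b in heart (18.2 to 78.1 RPM) and skeletal muscle (0.644 to 3.32 RPM).

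A count of 0 means different things for each member, because the libraries differ in depth. With a limit of 3 reads over a group, the 8 organs other than heart and skeletal muscle could hold up to 0.157 RPM of either miRNA (0 of 19142198 reads in 32 libraries), and skeletal muscle up to 0.117 RPM of miR-208a (0 of 25734494 reads in 4 libraries). The mean of miR-208b in heart was therefore at least 273-fold higher than in those 8 organs pooled, and its mean in skeletal muscle at least 10.5-fold higher, or 6.91-fold without the aged library. The mean of miR-208a in heart was at least 23.5-fold higher than in the 8 organs pooled and at least 31.6-fold higher than in skeletal muscle. The pooled bounds do not hold for each organ. Alone, testes could hold up to 4.04 RPM, above the heart mean of miR-208a (3.69 RPM). The limits of the other organs in this pool ran from 0.856 RPM (lung) to 1.64 RPM (antler). On the reads without miR-1 the bound against skeletal muscle was 8.37-fold, and 4.35-fold without the adolescence heart.

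For single libraries the miR-208a zeros carry less. At its lowest heart level of 1.10 RPM, more than 3 reads would be awaited in only 4 of the 36 libraries without a read, those of skeletal muscle, and at its mean level in 14 of 36. A level of miR-208a like that of the aged heart was thus not detectable in a single library of the other 8 organs. At the lowest heart level of miR-208b, 18.2 RPM, more than 3 reads would be awaited in 29 of the 32 libraries without a read. The exceptions were testes libraries, the shallowest of the series.

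Across the organ means in RPM, the heart held 100% of miR-208a and 96.3% of miR-208b. These were the highest heart shares among the 214 known miRNAs with at least 10 reads, and no other name among them reached that of miR-208b. Names with fewer reads were not ranked. One of these, miR-499, had all of its 5 reads in heart. On the reads without miR-1, a base added after the data had been seen, the shares were 100% and 87.8%, again the highest, and miR-133a came next at 47.5%. The 2 members rest on few reads, 34 and 380 over all libraries.

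The organ difference of miR-208b was fitted with limma over 127 known miRNAs. Its heart level was above the mean of the other 9 organs by 6.13 (SE 0.35) on the log2(RPM + 1) scale after TMM scaling, with an adjusted p of 1.10e-15. It had at least 10 reads in the 4 heart libraries and in the adolescence and aged skeletal muscle. Without heart, the group where it is high, it would not have passed the minimum of 10 reads in 4 libraries. In the fit with no minimum, over 337 names, the difference was 5.96 (SE 0.28, limma adjusted p = 6.79e-18). A miRNA was called at an adjusted p below 0.01 and a log2 difference beyond 1, and by that rule 14.2% of the miRNAs tested were called higher in heart. miR-208b had the fifth highest difference, after miR-133a, miR-133c, miR-1 and miR-133b. miR-208a had too few reads for this fit, and in the fit with no minimum its difference was 3.05 (SE 0.24, limma adjusted p = 4.54e-12), where 5.93% of names were called higher. A fitted difference against libraries at 0 depends on the pseudocount of 1 and is no measure of the true fold. The fit takes 1 spread per miRNA from all 40 libraries, of which 36 are at 0 for miR-208a and 32 for miR-208b. Libraries at 0 all have the same value, so these SEs and p-values do not measure the spread between the heart libraries.

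An exact permutation test of miR-208b alone, moving the heart label among the organs of a stage, gave a two-sided p of 1.00e-04, which is the smallest that its 10000 arrangements can give. The mean log2(RPM + 1) of heart was above that of the other organs by 5.12, and heart was the highest organ in 4 of 4 stages. The test reads every 0 as a level below heart. In the aged heart miR-208b stood at 33.1 RPM, while 3 reads stood for 71.7 RPM in the aged testes. Its rank against that library was thus not detectable. For miR-208a the same test gave the same p with a difference of 2.05, and the zeros limit it more. In the adult and aged hearts miR-208a stood at 1.97 and 1.10 RPM, while 3 reads stood for at least 3.31 and 2.88 RPM in the 8 organs other than heart and skeletal muscle, so its rank against those organs was not detectable at these stages. In the juvenile and adolescence hearts it stood at 6.20 and 5.47 RPM. There 3 reads stood for up to 14.0 and 44.6 RPM in those organs, so its rank could be read only against their deeper libraries.

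The ratio of the pair differed over the 4 heart libraries. Of the reads of both members, miR-208a made up 25.4% in the juvenile heart (16 of 63 reads, Clopper-Pearson 95% interval 15.3% to 37.9%) and 6.54% in the adolescence heart (14 of 214, 3.62% to 10.7%). It made up 4.55% in the adult heart (3 of 66, 0.947% to 12.7%) and 3.23% in the aged heart (1 of 31, 0.0816% to 16.7%). As a ratio of miR-208b to miR-208a these are 2.94, 14.3, 21.0 and 30, with intervals of 1.64 to 5.55, 8.32 to 26.6, 6.87 to 105 and 4.99 to 1224. The share was thus highest in the youngest library, and the 3 later ones, at 5.79% together (18 of 311 reads), had wide intervals that overlapped.

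The 4 shares differed by more than read sampling (Fisher-Freeman-Halton exact p = 1.56e-04). Without the juvenile library the test gave an exact p of 0.797, so the difference rests on that library. Over the 6 pairs, adjusted together, the juvenile heart differed from the adolescence heart (Fisher's exact adjusted p = 6.10e-04), the adult heart (exact adjusted p = 0.00285) and the aged heart (exact adjusted p = 0.0183). The exact adjusted p of the other 3 pairs lay between 0.924 and 1. These tests compare the reads of 4 libraries, since each stage had 1, and do not depend on miR-1 or on the scaling. The order of the shares from juvenile to aged among the 3 later hearts was not detectable at this depth.

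A share of reads is not a share of molecules, as cloning can take up miRNAs unequally, and such a factor is taken here to be alike in the 4 libraries. miR-208a and miR-208b are close relatives in sequence, and how the counting assigned a read that could match both is not given in the sources used here, so some reads may be split between them.

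**Figure D2:**
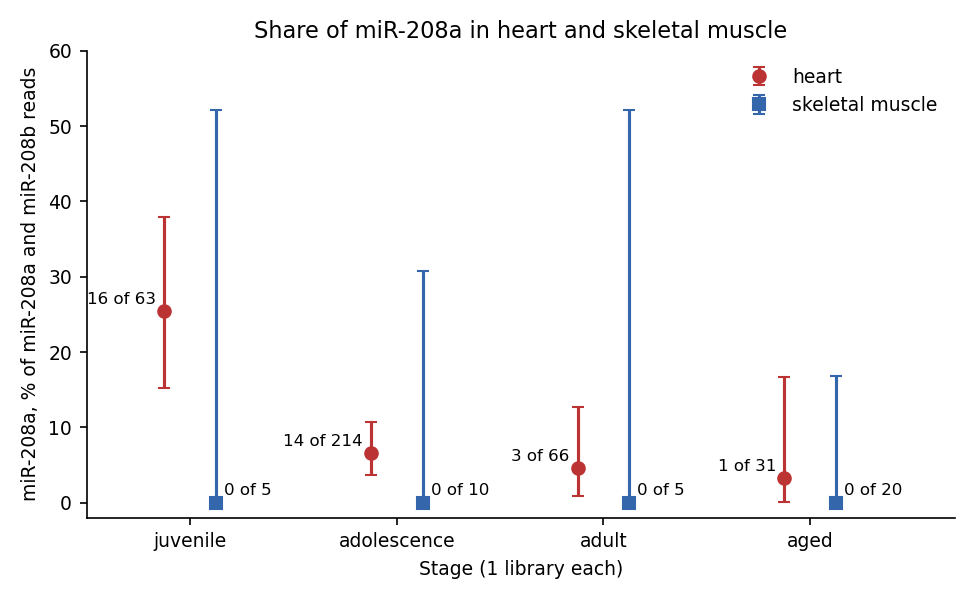
Reads of miR-208a as a percentage of the reads of miR-208a and miR-208b, in the 4 heart and the 4 skeletal muscle libraries, with Clopper-Pearson 95% intervals and the reads beside each point. The juvenile heart is highest at 25.4%, the later hearts lie between 3.23% and 6.54%, and the skeletal muscle libraries are at 0 of 5 to 0 of 20 reads.

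In skeletal muscle all 40 reads of the pair were miR-208b. A share of up to 8.81% of miR-208a is within the 95% interval of 0 of 40 reads. The heart libraries together had 9.09% (34 of 374 reads, 6.38% to 12.5%), and the shares of both organs did not differ at 0.05 (Fisher's exact p = 0.0614). Without the adolescence libraries the exact p was 0.0476. The reads of skeletal muscle were too few to tell its ratio from that of the 3 later hearts.

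The course of each member over the heart libraries was read by the random sampling model of DEGseq, the method the study names, with calls at q below 0.01 and a log2 fold beyond 1. It compares single libraries and holds no spread between deer. On RPM, miR-208b was higher in the adolescence heart than in the juvenile heart by 2.10 on the log2 scale (q = 2.21e-23), a 4.29-fold ratio with an exact interval of 3.11 to 6.03. Between these 2 libraries 26.3% of the 232 names were called in either direction, 15 higher and 46 lower in the adolescence heart. The median log2 fold of all names was -0.99, or 0.01 with 1 in place of 0. miR-208b was also called higher in the adult heart than in the juvenile heart, by 1.19 (q = 4.98e-05). There 20.8% of 250 names were called, 49 higher and 3 lower in the adult heart, with a median log2 fold of 0.78 over all names. It was called lower in the aged heart than in the adolescence heart, at -1.24 (q = 4.86e-08). There 37.0% of 235 names were called, 77 higher and 10 lower in the aged heart, with a median of 1.74.

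The other 3 pairs of miR-208b were not called. Aged over juvenile gave 0.86 (q = 0.0148, background 25.9%) and adult over adolescence -0.92 (q = 4.39e-06, background 30.4%), the latter under the limit of the fold. Aged over adult gave -0.32 (q = 0.593, background 10.7%). The calls behind these backgrounds were 55 higher and 8 lower, 68 and 5, and 16 and 10, in that order. For miR-208a none of the 6 pairs was called, and its log2 folds ran from -2.49 (aged over juvenile, q = 0.0241) to -0.18 (adolescence over juvenile). The aged over juvenile ratio of miR-208a was 0.178, with an exact interval of 0.00425 to 1.15 from 1 against 16 reads.

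This course depends on what the reads are set against, and miR-1 moves over the same libraries. Per 1000000 reads without miR-1, miR-208b stood at 43.1, 422, 60.6 and 39.1 in the juvenile, adolescence, adult and aged heart. The adolescence library then stood 9.80-fold above the juvenile library (7.10 to 13.8), and the aged over juvenile ratio was 0.906 (0.553 to 1.46). Per 1000000 miR-1 reads, a base chosen after the data had been seen, the values were 31.5, 95.9, 131 and 219, with an aged over juvenile ratio of 6.95 (4.25 to 11.2). The adolescence heart was above the juvenile heart on all 3 bases, whereas the place of the adult and aged hearts changed with the base.

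For miR-208a the values per 1000000 reads without miR-1 were 14.7, 29.5, 2.89 and 1.30. Adult over adolescence then gave a ratio of 0.0977 (0.0180 to 0.350) and aged over juvenile 0.0887 (0.00212 to 0.571). Per 1000000 miR-1 reads they were 10.7, 6.71, 6.23 and 7.30, and each of the 6 intervals of the ratios held 1. The values of the adult and aged hearts were thus below those of the younger pair on 2 bases, with no call on RPM, and on the third their order was not detectable at these counts. The part of miR-1 in the course of either member was not tested. In bulk tissue, fewer heart muscle cells and less of a miRNA per cell cannot be told apart.

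**Figure D3:**
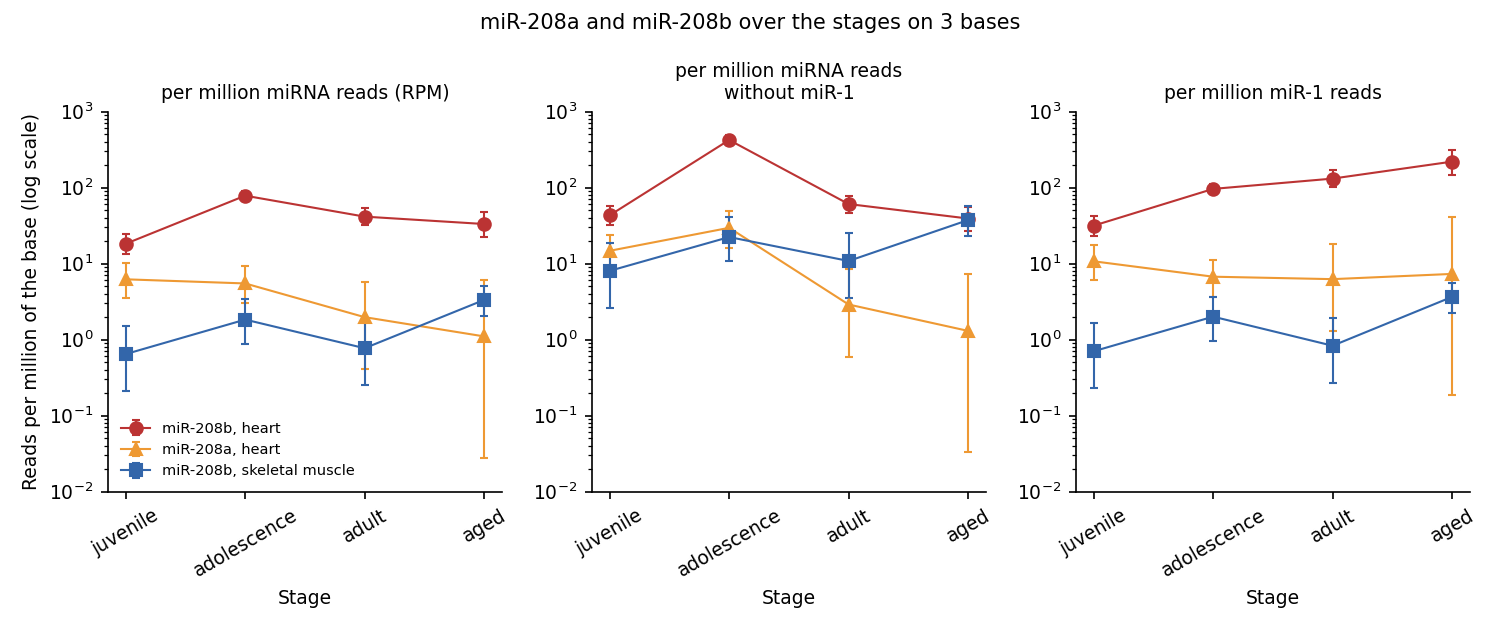
Levels of miR-208b in heart and skeletal muscle and of miR-208a in heart over the 4 stages, on log axes, as reads per 1000000 miRNA reads (left), per 1000000 miRNA reads without miR-1 (middle) and per 1000000 miR-1 reads (right), with exact 95% counting intervals. The adolescence heart peaks for miR-208b at 78.1 and 422 on the first and second base, and on the third the values go from 31.5 to 219.

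miR-208b was higher in heart than in skeletal muscle at each stage on RPM. The ratio was 28.2 in the juvenile libraries (11.3 to 91.0), 42.6 in adolescence (22.7 to 90.2), 53.8 in the adult (21.9 to 172) and 9.98 in the aged libraries (5.49 to 18.5). On the reads without miR-1 the ratios were 5.38 (2.15 to 17.3), 18.9 (10.1 to 40.1), 5.63 (2.29 to 17.9) and 1.05 (0.575 to 1.95). The aged heart and the aged skeletal muscle, at 39.1 and 37.3 per 1000000 reads without miR-1, therefore had intervals of the ratio that held 1, and the other 3 stages did not.

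In the limma fit miR-208b was higher in heart than in skeletal muscle by 2.31 (SE 0.47, adjusted p = 5.93e-04), where 7.09% of the 127 names were called higher in heart. Without the adolescence libraries the difference was 0.87 (adjusted p = 0.0784), so that its size rests on them in large part, and the call was also lost without the juvenile or the adult libraries. edgeR on the recovered reads gave 2.48 (adjusted p = 0.0677) and DESeq2 1.96 (adjusted p = 0.818). With no minimum of reads it was 2.09 (SE 0.37, limma adjusted p = 1.51e-04). miR-208a was higher by 3.05 (SE 0.33, limma adjusted p = 9.70e-09) in the fit with no minimum, where 2.08% of names were called higher. That call was lost in edgeR (5.92, adjusted p = 0.0398), in DESeq2 (4.40, adjusted p = 1) and with a pseudocount of 10 (0.93). As above, the limma SEs and p-values of both members rest largely on libraries at 0 and do not measure the spread between the heart libraries. On RPM with no TMM scaling the difference of miR-208b was 3.98, while the median difference of all 127 names moved from 0.11 to 1.93. In the exact permutation test within stages, chosen after the data had been seen, the 16 arrangements of these 2 organs allow no p below 0.125, and both members reached it.

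Within skeletal muscle the aged library was highest for miR-208b and the juvenile library lowest. The aged library was 5.15-fold above the juvenile library (1.88 to 17.6, 20 against 5 reads) and 4.31-fold above the adult library (1.57 to 14.7). On the reads without miR-1 these ratios were 4.66 (1.70 to 15.9) and 3.46 (1.26 to 11.8). miR-1 hardly varied between these 4 libraries, so the order was the same on both bases.

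Against the 8 organs that are neither heart nor skeletal muscle, miR-208b in skeletal muscle was higher by 4.30 (SE 0.35, limma adjusted p = 2.71e-12), where 17.3% of names were called higher, and by 4.34 (SE 0.28, limma adjusted p = 9.07e-15) with no minimum of reads. All 32 other libraries were at 0, so the SE and p do not measure the spread between the skeletal muscle libraries. On RPM with no TMM scaling the difference was 1.29, with a median of all names of -3.69 in place of -0.72. The exact permutation test within stages on RPM, also chosen after the data had been seen, gave p = 1.52e-04, the smallest it can give. It reads every 0 as a level below skeletal muscle. In the 8 organs 3 reads stood for at least 2.59, 3.37, 3.31 and 2.88 RPM in the order of the stages. Skeletal muscle stood at 0.644, 1.83, 0.769 and 3.32 RPM. Its rank within a stage was thus not detectable against most or all of these organs.

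The other miRNAs of striated muscle were read from a list of 10 names. miR-1 and the miR-133 family restrain growth and shape the differentiation of muscle cells, miR-486 and the miR-378 family are abundant in muscle, and miR-206 is the skeletal relative of miR-1. Of the 8 names with enough reads, 8 were called higher in heart than in the other 9 organs (median log2 difference 4.87, against -0.06 over all 127 names), and 8 higher in skeletal muscle than in the other 8 organs (median 5.78). Over all 127 names 18 and 22 were called higher in these comparisons. Without TMM scaling the counts were 7 and 5 of 8, against 11 and 8 of all 127 names. Between heart and skeletal muscle 0 were higher in heart and 2 lower, miR-1 at -3.69 (SE 0.75, limma adjusted p = 5.93e-04) and miR-378c at -1.82 (SE 0.43, limma adjusted p = 0.00206), whereas without TMM scaling 4 were higher and 0 lower. Over all 127 names 9 were called higher and 5 lower with TMM scaling, and 57 and 2 without it.

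miR-499 and miR-206, the list's remaining names, had few reads. miR-499 had 5 reads in all, in the adolescence heart (1.17 RPM) and the adult heart (1.32 RPM). miR-206 had 37 reads, all in skeletal muscle, at 1.93, 1.83, 0.923 and 0.996 RPM in the order of the stages, and 0 reads in heart. miR-206 was thus read in skeletal muscle alone, at a level like that of miR-208b there. Of the whole list of 6 striated muscle markers, 6 had reads in heart, with a summed level of 406033 to 844606 RPM, and 4 in skeletal muscle, at 928789 to 948557 RPM, against 1227 to 53944 RPM in the other 32 libraries.

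Markers of other cell types were also read in heart, in lists whose sums came mostly from 1 name each. miR-145 of smooth muscle stood at 9865, 6151, 21366 and 18593 RPM over the stages, whereas its partner miR-143 lay between 0.391 and 5.52 RPM. miR-486, which is found in red blood cells and in muscle, stood at 22679.9, 2936, 39211 and 40670.2 RPM, whereas the erythroid miR-451 was at 0, 0.391, 0 and 0 RPM. On RPM both abundant names were lowest in the adolescence heart, where miR-208b was highest, and highest in the adult and aged hearts, where miR-208a was lowest. miR-1 took 81.5% of the reads of the adolescence heart, which lowers the RPM of every other name there. The order of miR-145 is tied to this base and does not hold on the reads without miR-1. The part of these cells in the members' course was not tested.

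The remaining lists were lower. miR-192 of kidney and epithelia stood at 488, 388, 1264 and 288 RPM. miR-200b was at 2.21 RPM in the aged heart and 0 in the earlier hearts, and miR-194 and miR-429 were at 0. Endothelial miR-126 ran from 0.775 to 9.86 RPM, the leukocyte miRNAs miR-142 and miR-150 together from 12 to 23.2 RPM, and miR-124a and miR-128 of neurons together from 0 to 4.60 RPM. The liver marker miR-122 matched no listed name, and several other markers of these lists matched none either. The spleen of the aged stage had 5.21% miR-1 reads, the most outside heart and skeletal muscle, and 0 reads of either member.

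**Figure D4:**
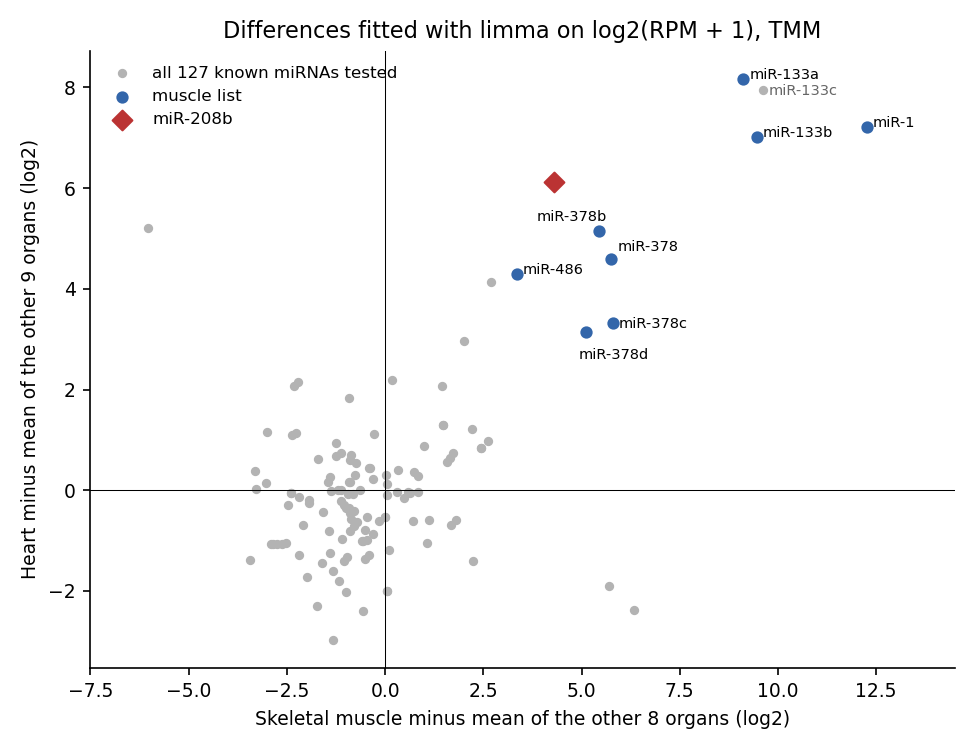
Fitted log2 difference of heart from the mean of the other 9 organs (vertical) against that of skeletal muscle from the mean of the other 8 organs (horizontal), for 127 known miRNAs (limma on log2(RPM + 1) after TMM scaling). miR-208b lies at 6.13 and 4.30, among the muscle miRNAs at the upper right. Both axes share the 8 other organs.

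The names whose profile was most like that of each member over the 40 libraries, by Pearson's r of log2(RPM + 1) among 214 known miRNAs, were the other member (r = 0.890) and then miR-133c, miR-133a, miR-1 and miR-133b. For miR-208b their r was 0.798, 0.760, 0.686 and 0.682, and for miR-208a 0.623, 0.595, 0.529 and 0.520. The points share organs and depth, and most of them are at 0 for both members, so these are descriptions. miR-133a, at 83958, 29225, 184634 and 252493 RPM, was lowest in the adolescence heart, the library where miR-208b was highest.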

How the data were processed

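Small RNA libraries were made from pooled RNA of 3 deer per organ and stage and sequenced on an Illumina platform. The labels name a NEBNext small RNA kit and the study's methods a TruSeq kit. The authors trimmed adaptors, set aside other classes of RNA, matched reads to miRBase, predicted further miRNAs with miRDeep, and deposited RPM values (headed tpm) per library. Their processing notes name CASAVA, bcl2fastq 1.8.4 and Bowtie. Names absent from a library's table were set to 0. Divided by the value of 1 read, all 7982 values came within 0.01 of whole numbers, and these recovered reads were used for count tests. In 3 libraries, the adolescence and adult skeletal muscle and the aged testes, a separate check of the steps did not accept them as whole reads, and they were treated like the rest. miR-208a and miR-208b, the muscle list and the marker lists were chosen with earlier results of these data known. The miRNAs named are the 2 members, the muscle list, the 5 names most like each member and any name with a heart share at least that of miR-208b. Likeness and heart share were read among known names with at least 10 reads over all libraries. miR-133c and all names of the miR-378 family came with those rules.

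Differences were fitted in R 4.3.3 with limma 3.58.1 (trend), after TMM factors from edgeR 4.0.16, as log2(RPM + 1), with organ and stage as terms. Known miRNAs entered where 4 or more libraries had 10 or more reads. p-values were adjusted by Benjamini-Hochberg over all names tested. The stage term is the replicate block, since the 10 organs at each age are from the same 3 deer. Deviations from the organ mean correlated at a median of 0.126 over 180 pairs of the same stage (-0.699 to 0.812) and at -0.0400 over 540 pairs of different stages. The deviations of an organ sum to 0 over its 4 stages, so the second median is tied to the first and is no separate check. Shares were tested with Fisher's exact test and its Freeman-Halton extension, and given Clopper-Pearson 95% intervals, with scipy 1.17.1. Ratios have exact binomial intervals. The random sampling model used 0.5 in place of 0. The limma fit and the random sampling model were tested on simulated data. DESeq2 1.42.0 and edgeR were run on the recovered reads as alternatives. Depth ran from 41866 to 7759033 miRNA reads, so 1 read stood for 0.129 to 23.9 RPM. Sequences and genome positions were not analysed here.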

Additional observations from a re-analysis of the deposited data

Results flagged for a closer look

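Over 31 sets of 4 values, 1 per stage (levels of both members and of the muscle list, the share of miR-208a and the miR-1 share), 2 had a library far from the others by Dixon's test, where chance flags about 1 in 20. They were the share of miR-208a in the juvenile heart, 25.4% against 3.23% to 6.54% later, and miR-208b per 1000000 reads without miR-1 in the adolescence heart, 422 against 39.1 to 60.6. On RPM the adolescence value was not set apart in this way.

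The aged over adult ratio of miR-208b lay below 1 in heart and above 1 in skeletal muscle on 2 bases. It was 0.800 (0.5 to 1.25) in heart and 4.31 (1.57 to 14.7) in skeletal muscle on RPM, and 0.644 (0.403 to 1.01) and 3.46 (1.26 to 11.8) on the reads without miR-1. The heart intervals held 1 on both, so a fall in heart was not shown. On miR-1 reads the ratio was above 1 in both organs, at 1.67 (1.05 to 2.62) and 4.40 (1.60 to 15.0). The difference between the organs was not tested, and each has 1 library at each of these stages.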

How the results depend on the processing

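In heart against the other 9 organs and skeletal muscle against the other 8, the direction and the call held in 34 of 38 alternative model fits and the call was lost in 4. In heart against skeletal muscle the direction held in 25 of 25 and the call was lost in 8. The 16 alternatives of the permutation test each gave the smallest p they allow and say nothing of stability. In DESeq2, whose dispersion for miR-208b stood at its upper limit of 40 (median of all names 0.376), miR-208b gave 8.08 (adjusted p = 0.197) for heart against the other 9, 1.96 (adjusted p = 0.818) against skeletal muscle and 6.88 (adjusted p = 0.244) for skeletal muscle against the other 8, and miR-208a gave 5.37 and 4.40 for heart (adjusted p = 0.801 and 1). edgeR gave 2.48 (miR-208b) and 5.92 (miR-208a, adjusted p = 0.0398) for heart against skeletal muscle. A pseudocount of 10 brought both differences of miR-208a to 0.93, under the limit of the fold. With 1 stage left out, miR-208b in heart against skeletal muscle ran from 0.87 to 2.59, the exact p of the share over the heart libraries from 8.52e-05 to 0.797 and that of heart against skeletal muscle from 0.0476 to 0.237. Without the juvenile or the adult libraries miR-208b in heart against skeletal muscle also lost its call (2.21 and 2.02). The fit with no replicate block changed no call: miR-208b in heart against the other 9 kept 6.13, and the permutation with no block gave p = 1.09e-05.

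The heart stage pairs changed most. On the total without miR-1, adolescence over juvenile of miR-208a turned to 1.01, and with TMM factors to 1.58 (q = 0.00291). Aged over juvenile of miR-208b turned to -0.14 without miR-1, and aged over adult to 0.01 with TMM. Without miR-1 and with TMM, in that order, miR-208a was called for adult over juvenile (-2.35, -2.63), aged over juvenile (-3.49, -3.14), adult over adolescence (-3.36, -4.21) and aged over adolescence (-4.50, -4.71). miR-208b was called for adult over adolescence (-2.80, -3.65) and no longer for adult over juvenile (0.49, 0.20). The cause was not tested.

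Of all names, RPM with no TMM called 11 higher and 54 lower in heart (TMM 18 and 11), 57 and 2 against skeletal muscle (9 and 5) and 8 and 104 in skeletal muscle (22 and 24). The total without miR-1 gave 14 and 30, 9 and 4, and 12 and 50, DESeq2 19 and 17, 11 and 15, and 26 and 17, and edgeR 20 and 3, 9 and 5, and 24 and 17. Depth limits miR-208a most, with 1 to 16 reads in a heart library.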
